A study of Nasonia vitripennis with 51 samples.

Results

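DNA methylation was compared between the bodies of Nasonia vitripennis females fed the methyltransferase inhibitor 5-aza-2'-deoxycytidine (5-aza-dC) for 48 h and the bodies of females fed sucrose alone. These are 18 of the 51 samples of the study, chosen by the labelled feeding regime and tissue. The 9 samples of the 48 h 5-aza-dC regime came from females given 20% sucrose with 10 µM 5-aza-dC for 48 h, and the 9 sucrose samples from females given 20% sucrose with no drug for 24 h. In each regime, 3 samples were taken at 0 h, 3 at 24 h and 3 at 48 h after feeding ended, as the characteristics of the samples state. A sample is a pool of 10 females, and a body is the thorax and abdomen without the head. All females belonged to AsymC, a wild-type laboratory strain that had been cured of Wolbachia. The regimes differ in the length of feeding as well as in the drug, so that 48 h of feeding, the age it adds and 5-aza-dC itself cannot be told apart in this comparison. The files give counts of methylated and of all reads at each CpG, and 1789099 of 4150376 CpGs had reads in all 18 samples. In 6 of the 18 samples, 1 in each regime at each harvest time, the title gave no harvest time or another one than the characteristics.

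In animals, DNA methyltransferases add a methyl group to cytosines that precede a guanine and copy the mark to the new strand after DNA replication. 5-aza-dC is built into replicating DNA in place of cytosine, where it traps the methyltransferase, so that the mark is lost as cells divide. In Nasonia and many other insects, methylation is sparse, lies mostly in the transcribed bodies of genes and is close to absent between them. Bisulphite sequencing reads unmethylated cytosine as thymine, and any unmethylated cytosine that escapes conversion is counted as methylated.

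Depth differed between libraries, with a lowest, median and highest mean of 5.97, 29.1 and 43.1 reads per CpG in 48 h 5-aza-dC bodies and of 20.7, 24.1 and 33.3 in sucrose bodies. The shallowest library was replicate 1 of 48 h 5-aza-dC at 0 h, in which 87.0% of the values at the CpGs tested below rested on fewer than 10 reads. No more than 0.953% of those CpGs had identical counts in any 2 samples of one regime and harvest time. The files give no build for their coordinates and pair no CpG with a gene, so sites are named by the chromosome or scaffold and the position in the file, and no tissue markers could be checked.

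Averaged over the highly methylated CpGs, methylation was not lower in 48 h 5-aza-dC bodies. At the 4199 CpGs with a mean of at least 50% over the 18 samples, called methylated CpGs here, the lowest, median and highest share of methylated reads was 81.4%, 83.0% and 83.5% in 48 h 5-aza-dC bodies, against 81.2%, 82.1% and 82.7% in sucrose bodies. The group ranges overlapped. The mean was 82.9% ± 0.699 (SD, n = 9) in 48 h 5-aza-dC bodies and 82.0% ± 0.555 (SD, n = 9) in sucrose bodies. The difference of 0.853 percentage points was larger than the spread within harvest times (exact two-sided permutation test within harvest times, p = 0.00075, where 0.00025 is the smallest p possible). It was positive at each harvest time, 0.807 points at 0 h, 0.994 points at 24 h and 0.757 points at 48 h. With 3 samples a group at each time, the smallest exact p is 0.1.

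Methylated reads were also more frequent at CpGs that are nearly unmethylated. At the 942191 CpGs with a mean under 2%, called background CpGs here, 48 h 5-aza-dC bodies ranged from 0.0433% to 7.33% with a median of 2.26%, and sucrose bodies from 0.318% to 0.940% with a median of 0.361%. The mean was 2.29% ± 2.38 (SD, n = 9) in 48 h 5-aza-dC bodies and 0.488% ± 0.229 (SD, n = 9) in sucrose bodies, a difference of 1.80 points (exact two-sided permutation test within harvest times, p = 0.016). Direction differed between harvest times. At 0 h the 3 samples of 48 h 5-aza-dC held 0.145% ± 0.0877 (SD), all below the 3 sucrose samples at 0.540% ± 0.348 (SD). At 24 h the means were 3.45% ± 3.44 (SD, n = 3) in 48 h 5-aza-dC bodies and 0.481% ± 0.254 (SD, n = 3) in sucrose bodies, and at 48 h 3.27% ± 0.691 and 0.442% ± 0.128 (SD, n = 3 each). Without the highest library, replicate 1 of 48 h 5-aza-dC at 24 h, the difference over all times was 1.15 points. Without the 6 samples with other titles it was 0.970 points (exact permutation test, p = 0.139). Background CpGs were chosen by their mean over the same 18 samples, each with equal weight, and the lowest value depended on that choice. The shallow library, at 0.0433% here, held 0.299% at CpGs under 2% in heads. The other 0 h samples of its regime held 0.306% and 0.285% there. At these CpGs the 0 h means were 0.296% ± 0.0105 in 48 h 5-aza-dC bodies and 0.790% ± 0.404 in sucrose bodies (SD, n = 3 each). Incomplete conversion in a library and methylation spread thinly over the genome cannot be told apart from these counts.

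**Figure D1:**
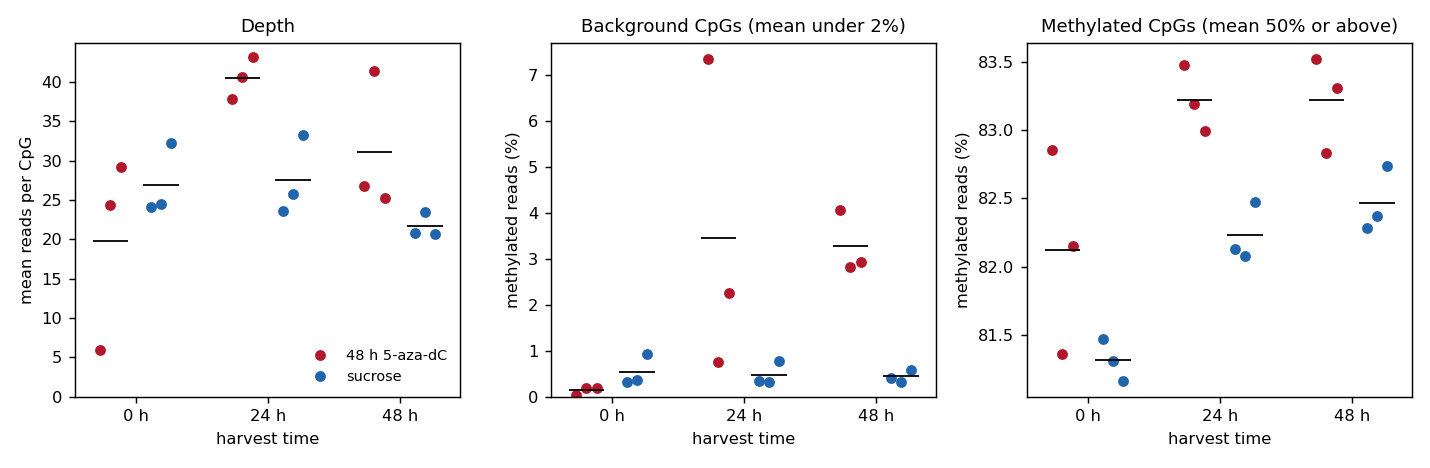
Mean reads per CpG, and the percentage of methylated reads at background CpGs (mean under 2%) and at methylated CpGs (mean of 50% or above), in each body sample by harvest time, with a horizontal line at the mean of the 3 samples. Background CpGs, chosen by their mean over the same 18 samples, ranged from 0.0433% to 7.33% in 48 h 5-aza-dC bodies and from 0.318% to 0.940% in sucrose bodies. The lowest value is that of the shallow library, which held 0.299% at CpGs chosen in heads. The vertical axis of the right panel does not start at 0.

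Because a raised background adds methylated reads at every CpG, the difference was measured in classes of CpGs set by their mean in the 17 heads of the same regimes, which were not part of the comparison. As deposited, each of the 6 classes was higher in 48 h 5-aza-dC bodies on average over the harvest times, and at 24 h and 48 h. At 0 h the classes under 2%, at 2% to 10% and at 20% to 50% were lower there, with differences of -0.494, -0.670 and -0.0457 points. At 3470 CpGs of 80% or above, the means were 86.9% ± 0.585 in 48 h 5-aza-dC bodies and 86.2% ± 0.517 in sucrose bodies (SD, n = 9 each), a difference of 0.709 points (exact permutation test, adjusted p = 0.00225 over the 6 classes). The 955 CpGs at 50% to 80% differed by 1.48 points, the 2101 at 20% to 50% by 1.44 points, and the 19256 at 10% to 20% by 2.70 points (exact permutation tests, adjusted p = 0.0025, 0.0198 and 0.00225). At the 465334 CpGs of 2% to 10% and the 1297983 under 2% the differences were 2.17 and 2.19 points (exact permutation tests, adjusted p = 0.02 and 0.0198).

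Each sample's own background share, measured at the CpGs under 2% in heads, was then subtracted. In the 5 classes above 2%, no difference remained past the threshold of 0.05 after adjustment. The class of 80% or above averaged 86.5% ± 0.407 in 48 h 5-aza-dC bodies and 86.0% ± 0.528 in sucrose bodies (SD, n = 9 each), a difference of 0.417 points (exact permutation test, p = 0.024, adjusted p = 0.12 over the 5 classes). The other 4 classes differed by 0.563, -0.201, 0.778 and 0.0287 points, in order from 50% to 80% down to 2% to 10% (exact permutation tests, adjusted p between 0.221 and 0.666). The class at 20% to 50% thus changed direction when the background was removed. Over all 4199 methylated CpGs the difference was 0.469 points with this background removed (exact permutation test, p = 0.0335). With background CpGs chosen in the bodies instead it was 0.541 points (exact permutation test, p = 0.00775), and 0.883, 0.470 and 0.269 points at 0, 24 and 48 h.

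**Figure D2:**
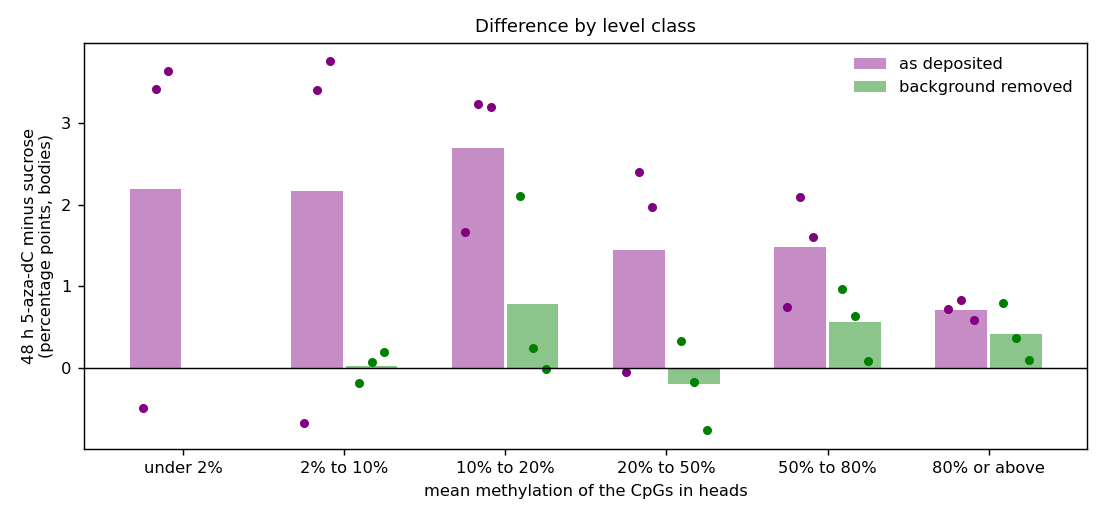
Difference in methylation between 48 h 5-aza-dC bodies and sucrose bodies in percentage points, for CpGs grouped by their mean level in heads, as deposited and with each sample's background share removed. Bars are the mean over harvest times and the points beside them, left to right, are the differences at 0, 24 and 48 h; every bar is above 0 as deposited, and with the background removed the bars lie between -0.201 and 0.778 points.

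The small difference at methylated CpGs was found along the whole genome as deposited. It was 0.922 points over 849 CpGs of chromosome 1, 0.832 over 754 of chromosome 2, 0.704 over 765 of chromosome 3, 1.07 over 296 of chromosome 4, 1.33 over 235 of chromosome 5 and 0.757 over 1300 on unplaced scaffolds (exact permutation tests, adjusted p between 0.0015 and 0.0205 over the 6 groups). With the background removed, all 6 differences were still positive, from 0.296 points on chromosome 3 to 0.973 points on chromosome 5. Of these, the 0.559 points of chromosome 1 passed the threshold (exact permutation test, adjusted p = 0.003) and the other 5 did not (adjusted p between 0.181 and 0.226). Whether chromosome 1 differs from the others was not tested.

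Single CpGs were tested where depth allowed. A CpG was tested if it had at least 10 reads in at least 2 of the 3 samples of each regime and harvest time and a mean of at least 10% over the 18 samples, which left 31366 CpGs. A quasi-binomial logistic fit with harvest time as a block, moderated with limma, called 113 CpGs at an adjusted p under 0.05, 0.36% of those tested. Methylation rose in 48 h 5-aza-dC bodies at 95 of them (0.303% of those tested) and fell at 18 (0.0574%). The median size of the difference at the called CpGs was 19.2 points, and the median difference over all tested CpGs was 3.05 points. At 3348 CpGs the unadjusted p was under 0.05. The minimum of 10% was taken over both regimes, and 49 of the 95 CpGs that rose had a mean under 10% in sucrose bodies, so that they were tested only through their level in 48 h 5-aza-dC bodies. Likewise 3 of the 18 that fell were under 10% in 48 h 5-aza-dC bodies. Of all tested CpGs, 29.6% were under 10% in sucrose bodies and 5.94% in 48 h 5-aza-dC bodies. The counts of rises and falls and the median difference over all tested CpGs therefore depend on this minimum. With the minimum set on the mean in heads, 74 rose and 17 fell among 20221 CpGs. Called CpGs were variable between pools: the median SD within a regime and harvest time was 12.6 points, against 9.56 points over all tested CpGs.

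The calls lay mostly at CpGs of low and intermediate level. Of 25103 CpGs with a mean of 10% to 20%, 48 rose and 5 fell. Of 2913 at 20% to 50%, 34 rose and 9 fell, and of 1116 at 50% to 80%, 12 rose and 4 fell. Among the 2234 at 80% or above, 1 rose and none fell. The share called was 0.211%, 1.48%, 1.43% and 0.0448% of these 4 classes. The balance at the lowest level turned once the background measured at CpGs chosen in heads was removed: 12 rose and 16 fell at 10% to 20%, 24 rose and 11 fell at 20% to 50%, 7 rose and 4 fell at 50% to 80%, and none was called at 80% or above. A methylated CpG lay within 200 bp of 39 of the 113 called CpGs (34.5%), against 11.4% of all tested CpGs. By position, 26 called CpGs lay on chromosome 1, 16 on chromosome 2, 25 on chromosome 3, 4 on chromosome 4, 8 on chromosome 5 and 34 on unplaced scaffolds, which held 16.5%, 17.1%, 15.4%, 8.03%, 4.63% and 38.3% of the tested CpGs.

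The count of calls depended on the background and on single libraries. With each sample's background removed, 73 CpGs were called, of which 46 rose and 27 fell, and 64 of these were among the 113. Without the 2 libraries of lowest depth and highest background, replicate 1 of 48 h 5-aza-dC at 0 h and at 24 h, 54 rose and 10 fell. Leaving out single samples gave 57 calls without replicate 3 of sucrose at 24 h, 71 without replicate 2 of 48 h 5-aza-dC at 0 h and 74 without replicate 2 of sucrose at 24 h. On arcsine-transformed proportions limma called 11 CpGs, all higher, and it called 0 after each sample was centred on its median, where 2481 had an unadjusted p under 0.05. Unlike the main fit, both of these left out values of fewer than 10 reads and did not weigh values by depth.

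Among the called CpGs with one direction at all 3 harvest times (81 higher and 15 lower), the 10 with the largest mean difference in each direction were taken. The largest rise was at position 9397768 of chromosome 1. There, 48 h 5-aza-dC bodies held 43.9%, 68.5% and 100% (lowest, median, highest; the highest rests on 4 reads) and sucrose bodies 4.76%, 20.0% and 64.3%. The groups overlapped, since the sucrose samples harvested at 48 h lay at 55.6%, 38.9% and 64.3%. The difference was 40.3 points, with a log odds ratio of 1.44 ± 0.27 (SE; adjusted p = 7.31e-05). Its 2 neighbours within 100 bp were nearly unmethylated, at a mean of 2.36% or less.

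At position 3400131 of chromosome 1 the groups were fully apart. The lowest, median and highest values were 31.7%, 55.6% and 79.4% in 48 h 5-aza-dC bodies, against 8.0%, 27.6% and 28.6% in sucrose bodies. The difference was 35.2 points (log odds ratio 1.44 ± 0.28 SE, adjusted p = 1.50e-04), and it was 31.8 points at 0 h, 41.2 points at 24 h and 32.5 points at 48 h. Without the 6 samples with other titles its adjusted p was 0.0984. Across the 113 called CpGs, 3 showed no overlap between the 9 samples of each regime. The calls were picked for their difference, and the share without overlap over all tested CpGs is not given. The other 2, named here because of that, were position 28442121 of chromosome 1 (lowest, median and highest 10.5%, 14.3% and 100% in 48 h 5-aza-dC bodies, the highest on 6 reads of the shallow library, and at most 6.25% in sucrose bodies) and position 6668307 of chromosome 4 (12.7% to 29.4% in 48 h 5-aza-dC bodies, at most 8.70% in sucrose bodies). These 2 positions averaged 1.66% and 4.49% in sucrose bodies, so that they were tested only through their level in 48 h 5-aza-dC bodies. At position 6668307, 1 sucrose sample at 0.0% had only 3 reads. Neither position was higher on average in heads. The first, not tested there, averaged 3.50% ± 3.58 (SD, n = 8) in 48 h 5-aza-dC heads and 4.60% ± 4.00 (SD, n = 9) in sucrose heads. The second averaged 8.32% ± 3.54 in 48 h 5-aza-dC heads and 11.8% ± 6.97 in sucrose heads (adjusted p = 0.956 with limma).

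Position 28060267 of chromosome 2 held 0.0%, 72.0% and 87.5% (lowest, median, highest) in 48 h 5-aza-dC bodies and 0.0%, 21.4% and 76.2% in sucrose bodies. The 0.0% among 5-aza-dC bodies was 0 of 4 reads, which allows a share of up to 75%, and the 2 such sucrose samples had 26 and 19 reads, which allow up to 11.5% and 15.8%. Such limits, here and below, are 3 divided by the number of reads, a rule that is only rough at few reads. The difference was 35.0 points (log odds ratio 2.22 ± 0.35 SE, adjusted p = 8.14e-08), but 61.5 points at 24 h against 12.9 points at 48 h. At position 4080863 of chromosome 1 the values were 69.2%, 73.7% and 100% in 48 h 5-aza-dC bodies and 20.0%, 43.2% and 74.1% in sucrose bodies, 35.0 points apart (adjusted p = 3.86e-04). Both positions overlapped through sucrose samples taken at 48 h, and the first also through the 0 of 4 reads.

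Position 41990 of scaffold ChrUn_0265 was at 28.9%, 44.0% and 59.6% (lowest, median, highest) in 48 h 5-aza-dC bodies and at 0.0%, 4.0% and 31.6% in sucrose bodies, 34.4 points apart (adjusted p = 5.65e-07). The sucrose samples at 0.0% had 28 and 10 reads, which allow up to 10.7% and 30.0%. Position 2484518 of chromosome 4 was at 10.3%, 44.4% and 75.5% in 48 h 5-aza-dC bodies, against 0.0%, 9.68% and 37.8% in sucrose bodies, 29.2 points apart (adjusted p = 8.14e-08). The 0.0% was 0 of 32 reads, which allows up to 9.38%. Samples of the regimes overlapped at both positions, more of them at the second. The other 4 of the 10 lay at 517510 of chromosome 4, 6645361 and 28074284 of chromosome 2 and 1365498 of scaffold GL340968, with differences of 33.4, 31.1, 29.4 and 30.6 points (adjusted p between 5.65e-07 and 2.46e-04). At each of the 10 the call held with any one sample left out, while limma on centred values gave adjusted p values from 0.0561 to 0.566, all above 0.05. None of the 10 was called without moderation of the dispersion. On arcsine values without centring, limma called 9397768 and 3400131 of chromosome 1, 28060267 of chromosome 2 and 41990 of ChrUn_0265, and none of the others.

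**Figure D3:**
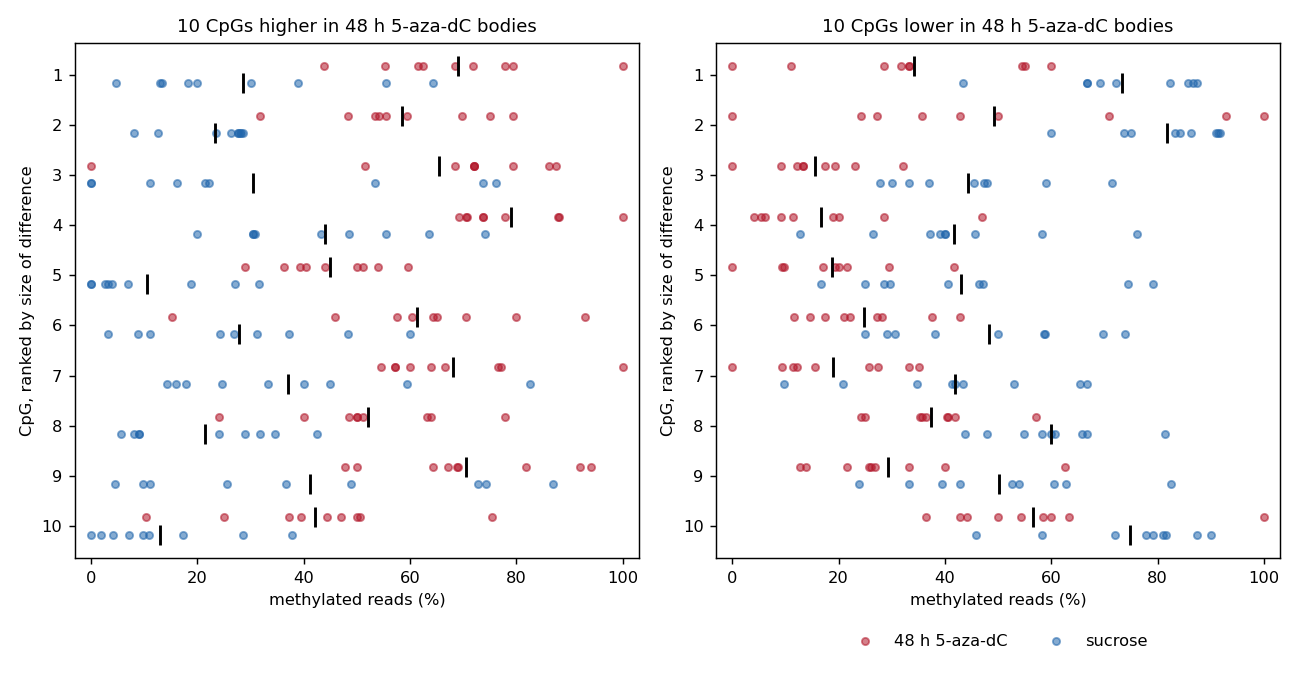
Percentage of methylated reads in each of the 9 samples of 48 h 5-aza-dC bodies and the 9 of sucrose bodies (points) with the mean of each regime (black bars), at the 10 CpGs with the largest rise and the 10 with the largest fall among the called CpGs, ranked from the top. At rank 1 of the higher CpGs the medians were 68.5% in 48 h 5-aza-dC bodies and 20.0% in sucrose bodies, and of these 20 CpGs the groups do not overlap at rank 2 of the higher ones alone.

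The largest fall among the lower CpGs taken was at position 11868630 of chromosome 3. It held 0.0%, 33.3% and 60.0% (lowest, median, highest) in 48 h 5-aza-dC bodies, against 43.5%, 72.2% and 87.5% in sucrose bodies. The 0.0% was 0 of 4 reads, which allows a share of up to 75%. At 24 h, 48 h 5-aza-dC bodies averaged 56.5% and sucrose bodies 71.9%, and the groups overlapped through 1 sucrose sample taken at 48 h, the one at 43.5%. The difference was -39.2 points (log odds ratio -1.44 ± 0.36 SE, adjusted p = 0.0144), with an adjusted p of 0.0621 without replicate 2 of 48 h 5-aza-dC at 0 h and of 0.222 without the 6 samples with other titles. Both neighbours within 100 bp were lower too, with a median difference of -21.9 points.

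Position 138350 of scaffold GL340882 was at 0.0%, 42.9% and 100% (lowest, median, highest) in 48 h 5-aza-dC bodies and at 60.0%, 84.2% and 91.7% in sucrose bodies. At 0 h the 48 h 5-aza-dC samples covered that whole range, since the 0.0% was 0 of 6 reads in the shallow library (up to 50% allowed) and the other 2 were at 92.9% and 100%. The difference was -32.5 points (adjusted p = 0.00116) and was largest at 24 h, at -43.0 points. At 0 h it was -25.5 points, and its direction at that time rested on the shallow library. The other 2 samples of 48 h 5-aza-dC at 0 h lay above the sucrose samples of that time, which held 86.4%, 91.7% and 91.3%. The call held with any one sample left out. It was lost in a fit with a mean per regime and time, with limma on arcsine or centred values, and without moderation of the dispersion.

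A group of 3 lower CpGs lay within 19 bp on chromosome 3. Direction was mixed around them. Of the 12 neighbours within 100 bp of position 25392915, among them the other 2 of the group, 6 were lower, and the median difference was 0.289 points. At position 25392915, 48 h 5-aza-dC bodies held 4.17%, 11.4% and 47.1% (lowest, median, highest) and sucrose bodies 12.8%, 40.0% and 76.2%. The difference of -25.0 points (adjusted p = 2.46e-04) came from 0 h and 24 h, at -41.8 and -31.9 points, and was -1.33 points at 48 h. Positions 25392905 and 25392923 differed by -23.5 and -21.0 points (adjusted p = 0.00119 and 0.00162). These had adjusted p values of 0.0547 without replicate 3 of sucrose at 24 h and of 0.0515 without replicate 2 of 48 h 5-aza-dC at 0 h.

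The other 5 lower CpGs lay at 869060 of scaffold GL340968, 165432 of GL340966, 26492 of GL341031, and 2386385 and 5388573 of chromosome 2. Their differences ranged from -28.8 to -18.2 points and their adjusted p values from 0.0228 to 0.0495. At each of them the call was lost when any one of 5 to 12 of the 18 samples was left out, with an adjusted p of at most 0.194. Without the 6 samples with other titles, 869060 of GL340968, 2386385 and 5388573 were not called (adjusted p = 0.354, 0.391 and 0.0575). Without the 2 libraries of lowest depth and highest background these 3 and 165432 of GL340966 were not called (adjusted p from 0.0901 to 0.134). Over all 10 lower CpGs, limma on centred values gave adjusted p values from 0.0561 to 0.441. None of these 10 was called with limma on arcsine values without centring, or without moderation of the dispersion.

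Called CpGs lay in 91 groups when those within 200 bp were joined, and 82 of these groups were single CpGs. The other 9 groups held 31 called CpGs, and each had one direction. All 5 called CpGs between 41963 and 42021 of scaffold ChrUn_0265 rose, averaging 35.1% in 48 h 5-aza-dC bodies and 11.0% in sucrose bodies. Likewise 5 CpGs between 4776738 and 4776798 of chromosome 5 averaged 45.8% in 48 h 5-aza-dC bodies and 23.9% in sucrose bodies. A group of 4 between 1365479 and 1365524 of scaffold GL340968 averaged 36.0% in 48 h 5-aza-dC bodies and 12.8% in sucrose bodies. On chromosome 3, 4 CpGs between 20847419 and 20847478 averaged 37.4% in 48 h 5-aza-dC bodies and 24.0% in sucrose bodies. CpGs of one group share reads and are not independent of each other.

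The size of the differences at called CpGs varied with harvest time. Over the 95 that rose, the median level of a CpG was 31.7% at 0 h, 34.5% at 24 h and 28.1% at 48 h in 48 h 5-aza-dC bodies, and 7.43% at 0 h, 6.25% at 24 h and 13.6% at 48 h in sucrose bodies. Over the 18 that fell, it was 16.4%, 17.9% and 25.6% at these times in 48 h 5-aza-dC bodies and 58.1%, 43.0% and 35.4% in sucrose bodies. In both sets the regimes were nearest to each other at 48 h. These values come from the samples that gave the calls and are a description.

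Tested within harvest times, 37 CpGs were called at 0 h (0.118% of those tested; 26 higher and 11 lower), 76 at 24 h (0.242%; 57 higher and 19 lower) and 0 at 48 h (0%). At 48 h, the unadjusted p was under 0.05 at 1834 CpGs in this fit and at 2987 with limma on arcsine values, which also called 0. A test of whether the difference depends on harvest time called 36 CpGs (0.115%), of which 6 were among the 113. The one at position 7895793 of chromosome 4, among the 5 with the smallest p and chosen after its values were seen, averaged 31.7% ± 12.9 at 0 h, 89.4% ± 5.23 at 24 h and 57.7% ± 21.1 at 48 h in 48 h 5-aza-dC bodies, and 75.4% ± 8.20, 94.1% ± 2.09 and 31.7% ± 16.1 in sucrose bodies (SD, n = 3 each; adjusted p = 4.00e-05 for the interaction in the fit moderated with limma). On arcsine values limma called 6 CpGs at 0 h, 1 at 24 h and 1 for the interaction.

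**Figure D4:**
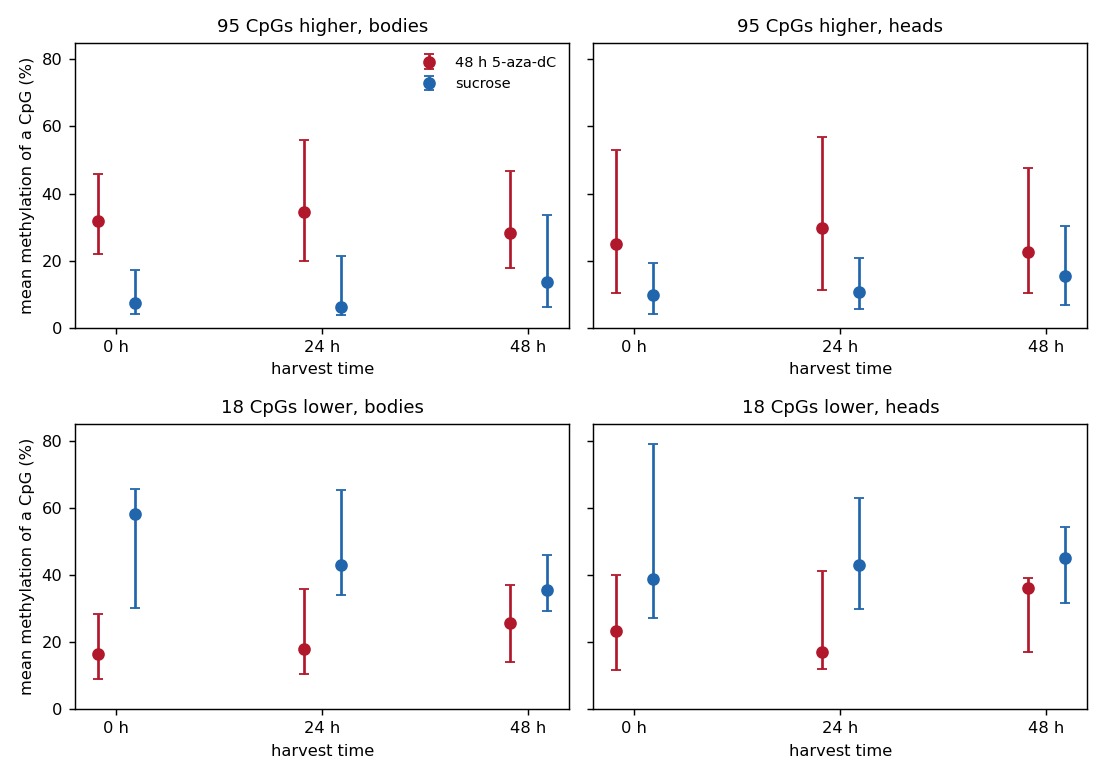
Median level over the CpGs called in bodies (points) with the range from the lower to the upper quartile of CpGs (bars), by harvest time, for the 95 that rose and the 18 that fell, in bodies and in heads. At 48 h the medians of the CpGs that rose were 28.1% in 48 h 5-aza-dC bodies and 13.6% in sucrose bodies.

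Stretches of methylated CpGs were then tested as units. Methylated CpGs joined within 200 bp gave 576 clusters of at least 3 CpGs, which held 2781 of the 4199 methylated CpGs. A cluster had a median of 4 CpGs over 83 bp, a median level of 84.6% and a median of 121 reads per sample. The median difference over the clusters was 0.764 points, 496 of them (86.1%) lay within 5 points of 0, and the median SD within a regime was 5.36 points. Methylation rose in 2 clusters and fell in none, so that 0.347% of the clusters were called, while 65 had an unadjusted p under 0.05. On arcsine values limma called 0 clusters, with 48 at an unadjusted p under 0.05.

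The cluster with the larger rise spans 28074284 to 28074495 of chromosome 2 and holds 5 CpGs, 4 of which were also called singly. Its lowest, median and highest values were 56.8%, 72.3% and 82.1% in 48 h 5-aza-dC bodies, against 17.6%, 35.6% and 83.5% in sucrose bodies. At 0 h and at 24 h the regimes were apart, with 69.9% ± 11.4 and 66.3% ± 8.78 in 48 h 5-aza-dC bodies and 23.5% ± 9.22 and 37.3% ± 12.5 in sucrose bodies (SD, n = 3 each). At 48 h they were alike in mean, at 78.8% ± 5.63 and 78.2% ± 5.09 (SD, n = 3 each). Over all times the difference was 25.3 points (log odds ratio 1.20 ± 0.22 SE, adjusted p = 0.00181 in the fit moderated with limma), and the dependence on harvest time had an adjusted p of 0.0127. Without the 6 samples with other titles its adjusted p was 0.173, and the cluster was not called.

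The second cluster holds 3 CpGs from 8257678 to 8257714 of chromosome 3. It was at 54.5%, 86.2% and 93.2% (lowest, median, highest) in 48 h 5-aza-dC bodies and at 49.2%, 68.9% and 89.3% in sucrose bodies, and the groups overlapped. The difference was 12.1 points (log odds ratio 0.88 ± 0.20 SE, adjusted p = 0.0226 in the fit moderated with limma). The call was lost without replicate 2 or 3 of 48 h 5-aza-dC at 0 h (adjusted p = 0.110 and 0.119), without its replicate 3 at 24 h (0.0642), and without replicate 2 or 3 of sucrose at 24 h (0.0655 and 0.0653). The count of called clusters was 1 without replicate 2 or 3 of 48 h 5-aza-dC at 0 h or replicate 2 of sucrose at 24 h, 4 without replicate 2 of 48 h 5-aza-dC at 48 h, and 5 without replicate 1 of sucrose at 48 h.

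**Figure D5:**
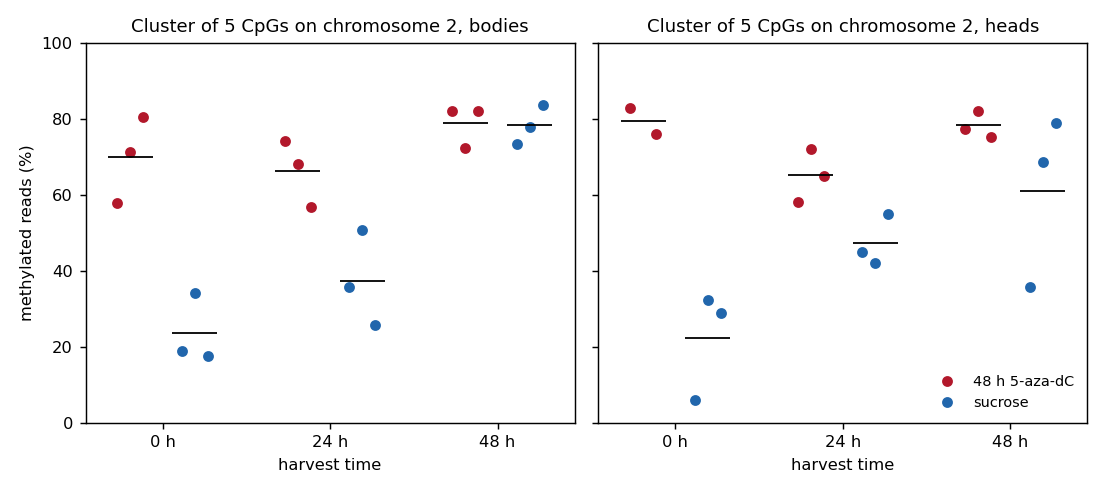
Percentage of methylated reads over the 5 CpGs of the cluster on chromosome 2 in each sample of bodies and of heads, by harvest time, with a line at the mean. In bodies the means were 69.9% in 48 h 5-aza-dC samples and 23.5% in sucrose samples at 0 h, and 78.8% and 78.2% at 48 h.

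Within harvest times, 5 clusters were called at 0 h (0.868%), 4 at 24 h (0.694%) and 0 at 48 h (0%), where 30 had an unadjusted p under 0.05 in the fit moderated with limma. The difference depended on harvest time in 6 clusters (1.04%). In the one from 12329470 to 12329525 of chromosome 2, the difference was 41.0 points at 0 h, 15.1 points at 24 h and -16.5 points at 48 h. Its means were 86.0% ± 7.24, 69.1% ± 16.3 and 68.8% ± 15.5 at these times in 48 h 5-aza-dC bodies and 45.0% ± 1.54, 54.0% ± 13.4 and 85.3% ± 4.43 in sucrose bodies (SD, n = 3 each). A cluster of chromosome 3 from 12797287 to 12797308 differed by 1.71, -37.6 and 7.54 points at these times, and one on scaffold GL340802 from 171186 to 171423 by -37.8, -0.401 and 4.53 points (adjusted p = 0.00264 for the interaction in each of the 3, in the fit moderated with limma).

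Heads of the same regimes gave a measure in samples that had no part in the calls, with 8 samples of 48 h 5-aza-dC and 9 of sucrose. The labels do not say whether heads and bodies came from the same females, so heads may not be independent of bodies. At position 9397768 of chromosome 1, sucrose means at 0, 24 and 48 h were 14.8%, 18.3% and 52.9% in bodies and 12.4%, 15.6% and 53.3% in heads. Over the 18 that fell, sucrose medians went from 58.1% at 0 h to 35.4% at 48 h in bodies and from 38.7% to 45.1% in heads. How far the tissues share such variation was not tested. Of the 95 CpGs that rose in bodies, 92 had the depth to be tested in heads; 82 of these differed in the same direction and 39 were called higher, against 0.292% of all 26052 CpGs tested in heads. Of the 18 that fell in bodies, 16 could be tested, all 16 differed in the same direction and 6 were called lower, against 0.138%. None of these 108 CpGs was called in the opposite direction in heads. The median difference of the CpGs that rose was 18.7 points in bodies and 14.7 points in heads, and that of the CpGs that fell was -21.8 points in bodies and -17.2 points in heads. Over all CpGs tested, 67.3% had an estimate above 0 in heads.

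No CpG passed the test of a difference between tissues. In the fit moderated with limma over bodies and heads, 0 CpGs (0%) had an interaction of regime with tissue at an adjusted p under 0.05, with 918 of 26052 at an unadjusted p under 0.05. At 20 of the 108 CpGs called in bodies and tested in heads the unadjusted p was under 0.05, each of them picked for its size in bodies. One of these 20 was position 6668307 of chromosome 4, which was higher in 48 h 5-aza-dC bodies and not in heads (adjusted p of the interaction 1.00 with limma). Position 9397768 of chromosome 1 averaged 66.9% ± 11.9 (SD, n = 8) in 48 h 5-aza-dC heads and 27.1% ± 23.5 (SD, n = 9) in sucrose heads, and was called there with an adjusted p of 4.46e-07 (limma). Position 3400131 averaged 60.2% ± 15.3 in 48 h 5-aza-dC heads and 34.1% ± 16.9 in sucrose heads (adjusted p = 0.00524 with limma). Of clusters, 3 were called in heads (0.521%) and 0 had an interaction with tissue (0%), 17 of them at an unadjusted p under 0.05 (limma). The cluster from 28074284 on chromosome 2 was at 73.6% ± 8.40 (SD, n = 8) in 48 h 5-aza-dC heads and 43.6% ± 21.8 (SD, n = 9) in sucrose heads (adjusted p = 0.0368 with limma).

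The regime of 24 h 5-aza-dC, with the same dose and the same 24 h of feeding as sucrose, gives a further set of bodies at the same sites, with reads in all of its 9 body samples at 78 of the 113 called CpGs. Over 68 CpGs that rose, the median level was 29.8% in 48 h 5-aza-dC bodies, 14.3% in 24 h 5-aza-dC bodies and 9.99% in sucrose bodies. Over 10 that fell it was 17.5% in 48 h 5-aza-dC bodies, 36.3% in 24 h 5-aza-dC bodies and 38.7% in sucrose bodies. At position 9397768 of chromosome 1 the means were 69.0% ± 16.1 in 48 h 5-aza-dC bodies, 24.1% ± 15.5 in 24 h 5-aza-dC bodies and 28.7% ± 20.4 in sucrose bodies (SD, n = 9 each). At position 41990 of scaffold ChrUn_0265 they were 44.9% ± 9.66 in 48 h 5-aza-dC bodies, 9.78% ± 8.49 in 24 h 5-aza-dC bodies and 10.5% ± 12.1 in sucrose bodies (SD, n = 9 each). These CpGs were chosen for the distance between 48 h 5-aza-dC and sucrose, so the place of the 24 h regime between them is a description, and the 2 regimes of 5-aza-dC share the sucrose samples as their control.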

How the data were processed

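Whole-genome bisulphite libraries (EZ DNA Methylation kit, TruSeq DNA methylation kit, Illumina HiSeq), per the labels' protocols, were deposited by the authors as counts of methylated and of total reads per CpG, written together in one cell and not normalized. The submitters' processing notes name cutadapt 1.12, Bismark 0.16, Bowtie2, SAMtools, methylKit 0.99.3 and R 3.3.1, with no role for each; the genome build is not given in the sources used here.

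From these counts, methylated shares were computed per sample. CpGs with at least 10 reads in 2 of 3 samples of each regime and harvest time and a mean of at least 10% were fitted by quasi-binomial logistic regression with harvest time as a block. The dispersion was moderated with limma 3.58.1 (squeezeVar, R 4.3.3), F tests were used, and p-values were adjusted by Benjamini-Hochberg over all CpGs tested. The same quasi-likelihood model had been planned in another package, which the cells as deposited do not allow. The moderation pulled the dispersion almost wholly to 1 common value, with a median of 1.87. Clusters were tested the same way on summed reads. Single values were tested by exact two-sided permutation within harvest times, over 8000 arrangements. The scripts were tested on simulated data.

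Sites were named by this rule: among called CpGs with one sign at all 3 harvest times, the 10 higher and 10 lower with the largest mean difference, and clusters likewise. Gene lists could not be used, since no annotation of the build was at hand. Groups follow the characteristics of the samples. Members and lists were chosen with earlier results of these data known. Classes by level in heads, classes by chromosome, the removal of background chosen in heads, and the leaving out of 2 libraries were added after seeing the data. Alternatives tried were other coverage and level minimums, limma on arcsine values of at least 10 reads, other design terms, background removal and the leaving out of samples.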

Additional observations from a re-analysis of the deposited data

Results flagged for a closer look

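Replicate 1 of 48 h 5-aza-dC bodies at 0 h stood apart in depth, at 5.97 reads per CpG, with a gap to the next library of 0.496 of the range of the 9 libraries. It was the single one of 8 groups checked to show such a sample. Chance alone gives about 1 in 20 for each group, and more than that over the 8 groups together. Without it and the library of highest background, 54 CpGs rose and 10 fell.

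The difference between 48 h 5-aza-dC and sucrose bodies depended on harvest time at 36 CpGs and in 6 clusters of methylated CpGs, by the interaction test in the fit moderated with limma. The cause was not tested.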

How the results depend on the processing

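No paired analysis was possible because the replicate numbers only follow the order of accession.

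The 5-aza-dC minus sucrose differences at tested and methylated CpGs kept their sign and their side of 0.05 under every alternative run. They were 1.38 to 3.37 points over tested CpGs (main 3.12) and 0.460 to 0.910 points over methylated CpGs (main 0.853). The 0.460 points, at 4425 CpGs of at least 50% in heads with the background removed, lay close to the threshold (exact permutation test, p = 0.04875). That difference was 0.905, 0.370 and 0.106 points at 0, 24 and 48 h. Leaving out single samples gave 2.34 to 3.58 points over tested CpGs, 0.731 to 0.980 points over methylated CpGs and 1.15 to 2.25 points at background CpGs. The last was 0.970 points (exact permutation test, p = 0.139) without the 6 samples with other titles. The minimum of 10% for tested CpGs was set on the same 18 samples, so the difference over them is not independent of it. Of tested CpGs, 29.6% were under 10% in sucrose bodies and 5.94% in 48 h 5-aza-dC bodies. The shallow library averaged 27.8% over them, against 21.2% and 20.4% in the other 0 h samples of its regime. The 113 CpG calls became 18 with at least 10 reads in all 18 samples (3018 CpGs tested), 70 with at least 20 reads in 2 of 3 (10473 tested), 43 at a mean of at least 20% (6263 tested), 63 without the 6 samples with other titles, 64 without the 2 libraries of lowest depth and highest background, 73 and 74 with background from bodies and from heads removed, 11 with limma on arcsine values, 0 on centred ones and 1 with no moderation of the dispersion; single samples left out gave 57 to 140. The 2 cluster calls became 1 with at least 5 CpGs per cluster, 5 with a mean per regime and time, 0 with limma on arcsine or centred values, and 1 to 5 with single samples left out. With limma on arcsine values the calls were 6 at 0 h (main 37), 1 at 24 h (main 76) and 1 for the interaction (main 36), and 36 at 24 h without the 6 samples. The class at 20% to 50% reversed to -0.201 points with the background removed. Where an alternative only tests fewer CpGs or samples this accounts in part for a lower count; otherwise the cause was not tested. In a single sample, a CpG at 10 reads resolves steps of 10 points. The moderated fit gives 113 calls and the fit without moderation 1, so single calls rest on pooling the dispersion over CpGs.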
